A study of Homo sapiens with 6 samples.

Results

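The proteasome is the protease complex of the cytosol and nucleus that degrades ubiquitin-tagged proteins. Its transcripts were followed in the myeloma cell line NCI-H929 after knockdown of either subunit of ribonucleotide reductase, which supplies the building blocks of DNA. The genes were taken by name, as every probe set (a group of array probes for one transcript) whose single annotated symbol begins with PSMA, PSMB, PSMC, PSMD, PSME, PSMF or PSMG followed by a digit. That gave 65 of the 22277 probe sets on the array, for 41 of 11963 genes. Of these, PSMC3IP and PSME3IP1, with 3 probe sets, match by their letters but encode no proteasome subunit, activator, inhibitor or assembly factor. The results below are for the other 39 genes and their 62 probe sets, called proteasome genes from here on. A further 5 probe sets whose annotation joins a proteasome symbol to another gene's were left out by the naming rule, so PSMA6 and PSME2 were not analysed here.

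The study had 6 arrays, all of RNA taken 24 h after small interfering RNA (siRNA) was brought into the cells by electroporation. In the siRRM1 group (2 arrays) the siRNA targeted RRM1, the large subunit of the reductase, and in the siRRM2 group (2 arrays) it targeted RRM2, the small subunit. The scramble group (2 arrays) was given a non-targeting siRNA. All groups are a single established human cell line at a single time point. The labels do not say how many siRNAs were used per target, or whether replicate arrays stand for separate cultures, so a p-value measures only the spread between these arrays, which may be technical. Values are log2 signals as deposited, and the array medians lay between 6.11 and 6.16.

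The proteasome has a barrel-shaped core of stacked alpha and beta rings, closed by a regulatory particle whose base unfolds substrates and whose lid removes ubiquitin. The catalytic beta subunits PSMB5, PSMB6 and PSMB7 can be replaced by the interferon-inducible PSMB8, PSMB9 and PSMB10, which gives the immunoproteasome, a form that favours peptides for MHC class I presentation. Plasma cells and myeloma cells make large amounts of secretory protein, and proteasome inhibitors are used to treat myeloma. Bulk RNA gives the mean over all cells, so fewer expressing cells and less RNA per cell cannot be told apart.

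Both targeted genes fell. RRM1 had log2 signals of 8.93 and 7.99 in siRRM1 cells and 11.12 and 11.38 in siRRM2 cells, against 11.06 and 11.11 in scramble cells, and the siRRM1 arrays lay below all others (log2 difference -2.63, SE 0.26, limma adjusted p = 0.00154). RRM2 read 12.92 and 13.12 in siRRM1 cells and 10.54 and 11.44 in siRRM2 cells, against 12.78 on both arrays in scramble cells, and the siRRM2 arrays lay below all others (log2 difference -1.79, SE 0.25, limma adjusted p = 0.0214), a call lost without scramble replicate 1 (limma adjusted p = 0.0748) or scramble replicate 2 (limma adjusted p = 0.0557). All 9 plasma cell markers were above the detection filter, a mean log2 signal of 5.44, and 1 of them, IRF4, fell in siRRM1 (-0.63, limma adjusted p = 0.0449). Of markers of other cells, 3 of 7 for T cells, 3 of 6 for myeloid cells, 2 of 5 for epithelial cells and 4 of 7 for stromal cells were above the filter, while CD3D, CD3G, CD14, LYZ, EPCAM and COL1A2 were below it. Among those above it, TRBC1, S100A8, S100A9, CSF1R, ACTA2 and FN1 rose in siRRM1. TRBC1 (0.64, limma adjusted p = 0.0353) and ACTA2 (1.31, limma adjusted p = 0.00408) also rose in siRRM2. The part of these markers in the results was not tested.

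The siRRM1 replicate 2 array stood apart within the proteasome genes. It was the lowest of the 6 arrays for 23 of the 39 genes and lay below siRRM1 replicate 1 for 35 of them (median log2 difference -0.11). These counts were not made over all genes. The median deviation from a gene's mean over the 6 arrays was -0.097 for proteasome genes and -0.0052 for all genes tested. This array also had the lowest median log2 signal over all genes tested, 8.04, against 8.05 to 8.10 on the others. Over all probe sets its median, 6.16, was not low, with the others from 6.11 to 6.16. Its log2 difference between the 3′ and 5′ control probe sets of ACTB, a sign of RNA or labelling quality, was 0.33. The same measure was 0.030 on siRRM1 replicate 1, 0.048 and 0.051 on the siRRM2 arrays, and 0.34 and 0.15 on the scramble arrays. For GAPDH the measure was -0.013 on siRRM1 replicate 2, -0.017 on scramble replicate 1 and between -0.11 and -0.093 on the others. The part of these ACTB and GAPDH measures in the results was not tested. Without the siRRM1 replicate 2 array the median log2 difference of the proteasome genes in siRRM1 was -0.037, against -0.093 with it. Over all genes tested this median was -0.012 without the array and -0.0092 with it.

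Knockdown of either subunit left most proteasome transcripts close to their scramble level. All 39 genes passed the detection filter. In siRRM1 against scramble, 4 fell and 0 rose at a limma adjusted p under 0.05, or 10.3% of the proteasome genes, where 15.5% of the 7936 genes tested were called (8.22% higher and 7.33% lower). Before adjustment 8 proteasome genes had a p under 0.05, where 32.6% of all genes passed. In siRRM2 against scramble 0 of the 39 were called by limma, where 2.52% of all genes were (2% higher and 0.517% lower), and 3 had an unadjusted p under 0.05, where 20.4% of all genes did. The share of falls in siRRM1 was thus near its background. Both comparisons use the same scramble arrays, so they are not independent. Over all genes tested, the siRRM1 calls were 652 higher and 582 lower, which turned to 572 higher and 818 lower when array medians were set equal.

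The direction was more often down than up, by small amounts. Of the 39 genes, 27 had a log2 difference below 0 in siRRM1 against scramble (69.2%, where 51.7% of all genes did) and 28 in siRRM2 against scramble (71.8%, where 50.7% did). The median over the proteasome genes was -0.093 in siRRM1 and -0.051 in siRRM2, beside medians over all genes of -0.0092 and -0.0033. Proteasome genes have high signals, with array medians of 10.75 to 11.04, against 8.04 to 8.10 for all genes tested. With the detection filter raised to the 60th percentile of signal, which all 39 genes passed, the medians over all genes were -0.036 and -0.019. At that filter 4 proteasome genes and 657 of the 5596 genes tested fell in siRRM1. The arrays did not overlap with scramble for 21 genes in siRRM1 (53.8%, where 59.3% of all genes did so) and for 22 in siRRM2 (56.4%, where 54.7% did). Of these, 19 were lower in siRRM1 (48.7%, where 30.9% of all genes were) and 19 were lower in siRRM2 (48.7%, where 27.7% were). The lists were not tested as wholes. No proteasome gene differed by as much as 1.5-fold in any comparison. The 95% interval of the difference from scramble lay between -0.5 and 0.5 on the log2 scale for 31 of the 39 genes in siRRM1 and 38 in siRRM2. The 1.5-fold and interval counts were not made over all genes, so they have no background here. Without siRRM1 replicate 2 the siRRM1 median was -0.037, beside -0.012 over all genes.

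**Figure D1:**
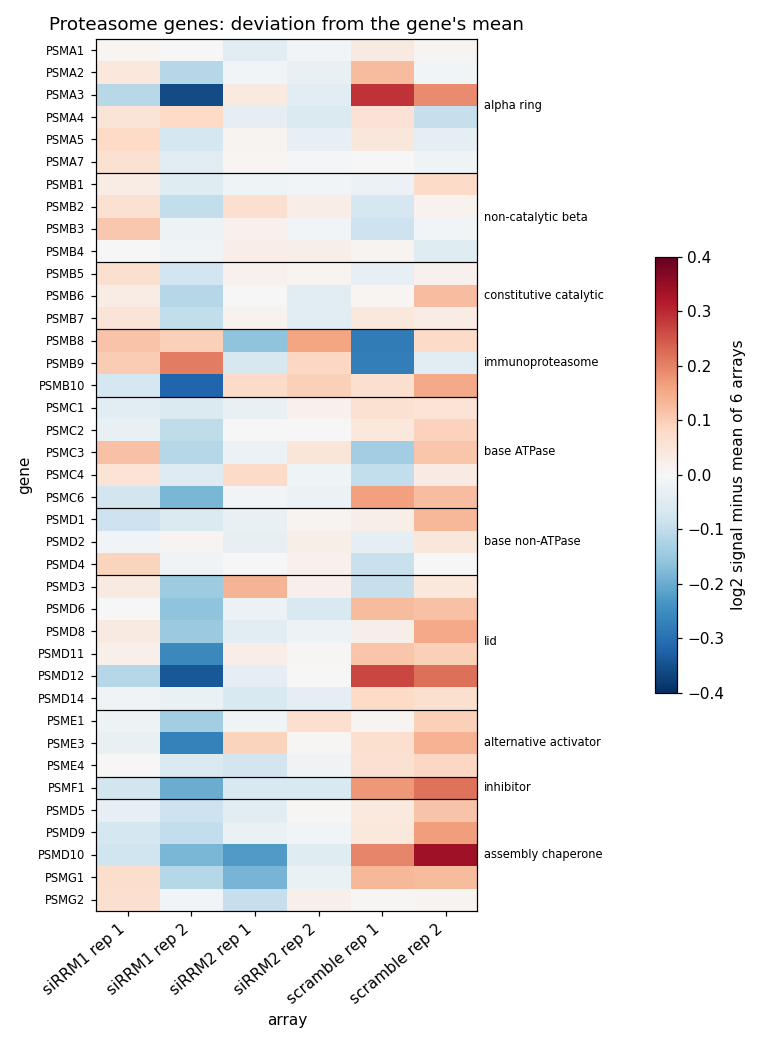
Each row is a proteasome gene, grouped by its class, and each column an array. The siRRM1 arrays are on the left, then siRRM2, then scramble. Colour is the log2 signal minus the gene's mean over the 6 arrays. The siRRM1 replicate 2 column is the lowest array for 23 of the 39 genes, a count not made over all genes. In the rows of PSMD12, PSMD10 and PSMF1 the knockdown arrays lie below the scramble arrays.

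The genes that fell in siRRM1 came from 4 different classes of proteasome gene. They were PSMA3, a subunit of the alpha ring, and PSMD12, a subunit of the lid. The others were PSMD10, also called gankyrin, an assembly chaperone of the base, and PSMF1, which encodes the proteasome inhibitor PI31. The promoters of PSMA3 and PSMD12, the pair with the largest differences, are shown with those of PSMB9 and PSMB10, immunoproteasome genes whose siRRM1 values lay on opposite sides of scramble. Each is the 250 bases before the gene start, from RefSeq on GRCh38.p14, read 5′ to 3′ on the gene's strand. PSMA3 lies at chr14:58244593-58244842 (plus strand), PSMD12 at chr17:67366578-67366827 (minus strand), PSMB9 at chr6:32853942-32854191 (plus strand) and PSMB10 at chr16:67936851-67937100 (minus strand). Capitals mark matches on either strand to 4 motifs: CCAAT (the CCAAT box), TGACNNNGC (the antioxidant response element, bound by NFE2L1 and NFE2L2), GAAA followed after any 2 bases by GAAA (the interferon-stimulated response element) and TTCNNNGAA (the gamma-activated site).
PSMA3: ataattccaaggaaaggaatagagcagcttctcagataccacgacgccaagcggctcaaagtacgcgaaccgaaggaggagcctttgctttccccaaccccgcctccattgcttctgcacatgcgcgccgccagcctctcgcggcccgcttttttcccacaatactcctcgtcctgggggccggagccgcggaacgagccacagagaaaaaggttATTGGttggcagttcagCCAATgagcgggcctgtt
PSMD12: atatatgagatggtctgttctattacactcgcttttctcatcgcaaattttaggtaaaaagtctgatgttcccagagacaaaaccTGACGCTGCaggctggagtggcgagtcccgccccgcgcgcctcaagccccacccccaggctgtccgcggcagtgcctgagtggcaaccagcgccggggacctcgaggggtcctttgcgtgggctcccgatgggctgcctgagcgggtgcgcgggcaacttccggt
PSMB9: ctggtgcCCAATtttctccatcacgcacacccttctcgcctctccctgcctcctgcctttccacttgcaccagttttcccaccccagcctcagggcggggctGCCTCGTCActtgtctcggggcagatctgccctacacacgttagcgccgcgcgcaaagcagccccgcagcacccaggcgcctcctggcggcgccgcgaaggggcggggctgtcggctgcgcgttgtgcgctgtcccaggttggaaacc
PSMB10: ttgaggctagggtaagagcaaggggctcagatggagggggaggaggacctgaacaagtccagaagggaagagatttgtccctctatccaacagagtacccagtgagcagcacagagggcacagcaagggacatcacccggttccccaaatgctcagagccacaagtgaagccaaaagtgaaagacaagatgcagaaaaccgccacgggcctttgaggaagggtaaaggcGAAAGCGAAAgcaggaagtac

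In these windows PSMA3 has CCAAT matches on both strands close to the start, from 35 to 31 and from 18 to 14 bases before it. PSMD12 has an antioxidant response element match 165 to 157 bases before the start. PSMB9 has a CCAAT match and an antioxidant response element match, and PSMB10 has an interferon-stimulated response element match 21 to 12 bases before the start. Promoters of 34 of the 39 genes were in the RefSeq table, and PSMA7, PSMB1, PSMB6, PSMB7 and PSMD4 were not looked up elsewhere. The antioxidant response element matched in 10 of the 34, or 29.4%, against 3013 of 27305 promoters in the table. The CCAAT box matched in 15 (44.1%, against 9021 of 27305), the interferon-stimulated response element in 3 (8.82%, against 3.07%) and the gamma-activated site in 4 (11.8%, against 6.78%). A match describes letters in the window and is not a measured binding site.

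PSMA3 had log2 signals of 11.47 and 11.23 in siRRM1 cells and 11.62 and 11.54 in siRRM2 cells, against 11.87 and 11.77 in scramble cells. All 4 knockdown arrays were below both scramble arrays. The gene fell to 0.720-fold of scramble in siRRM1 (log2 difference -0.47, SE 0.11, limma adjusted p = 0.0277). In siRRM2 the log2 difference was -0.24 (SE 0.11, limma adjusted p = 0.262).

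PSMD12 read 11.18 and 10.96 in siRRM1 cells and 11.26 and 11.30 in siRRM2 cells, against 11.56 and 11.51 in scramble cells. The 3 groups did not overlap, with siRRM1 lowest and scramble highest. It fell to 0.722-fold in siRRM1 (log2 difference -0.47, SE 0.10, limma adjusted p = 0.0231), and the siRRM2 difference was -0.26 (SE 0.10, limma adjusted p = 0.208). The other probe set of PSMD12 gave log2 differences of -0.39 in siRRM1 and -0.24 in siRRM2, and the first of these was also called when every probe set was fitted (limma adjusted p = 0.0389).

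PSMD10 read 9.72 and 9.62 in siRRM1 cells and 9.57 and 9.75 in siRRM2 cells, against 10.00 and 10.14 in scramble cells. Both knockdowns lay at about the same level, below scramble. The log2 difference was -0.40 in siRRM1 (SE 0.10, limma adjusted p = 0.0424) and -0.41 in siRRM2 (SE 0.10, limma adjusted p = 0.0901), so only the siRRM1 value passed. The siRRM1 value did not pass when every probe set was fitted (limma adjusted p = 0.0557). The difference between the knockdowns was 0.0071 (95% interval -0.24 to 0.25).

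PSMF1 read 8.38 and 8.25 in siRRM1 cells and 8.39 on both arrays in siRRM2 cells, against 8.62 and 8.67 in scramble cells. Every knockdown array lay below both scramble arrays. The siRRM1 log2 difference was -0.33 (SE 0.089, limma adjusted p = 0.0448) and the siRRM2 difference -0.26 (SE 0.089, limma adjusted p = 0.169). The siRRM1 value did not pass when every probe set was fitted (limma adjusted p = 0.0592). The other probe set of PSMF1, which has the lower signal, lay on the opposite side of scramble. In the fit of every probe set it had log2 differences of 0.10 in siRRM1 (limma adjusted p = 0.547) and 0.30 in siRRM2 (limma adjusted p = 0.161). The direction for PSMF1 therefore depends on the probe set.

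None of the 4 calls held under every choice of arrays. They were lost without siRRM1 replicate 2, without scramble replicate 1 and without scramble replicate 2. Each of these fits leaves a group with 1 array. Calls over all genes also became fewer in them, so the loss is not particular to the proteasome genes. Without either siRRM2 array PSMA3 and PSMD12 were called, and without siRRM1 replicate 1 the calls were PSMA3, PSMD12, PSMF1 and PSMB10. The signs stayed negative for all 4 genes when any single array was left out. The log2 differences then lay between -0.60 and -0.35 for PSMA3, -0.58 and -0.36 for PSMD12, -0.47 and -0.33 for PSMD10, and -0.39 and -0.27 for PSMF1.

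**Figure D2:**
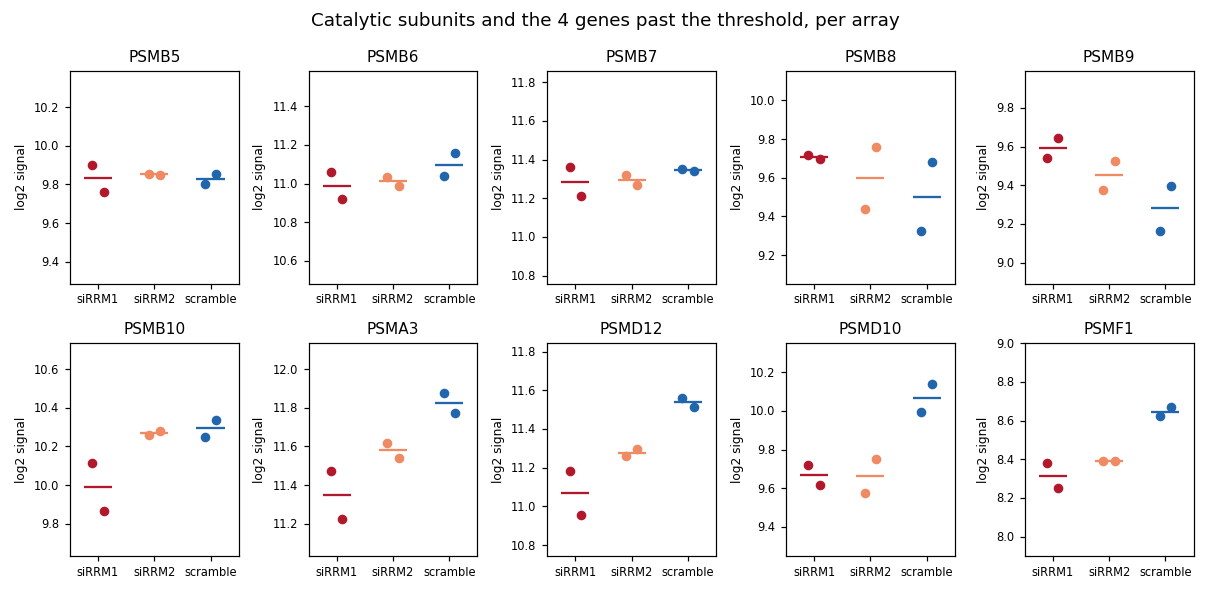
Log2 signal per array for the 6 catalytic subunits and the 4 genes that fell in siRRM1; points are arrays, horizontal bars are group means (n = 2), and every panel covers the same width of the log2 scale. For PSMB5, PSMB6 and PSMB7 the means of the 3 groups lie within 0.11 of each other, while PSMA3, PSMD12, PSMD10 and PSMF1 have every knockdown array below both scramble arrays.

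By the probe set with the highest signal, the genes of the constitutive core lay near 0 apart from PSMA3. Of its 13 genes tested, 1 fell in siRRM1, where 7.33% of all genes fell. In siRRM2 0 were called by limma, where 2.52% of all genes were. The median log2 difference was -0.00038 in siRRM1 and -0.030 in siRRM2. The other alpha subunits, PSMA1, PSMA2, PSMA4, PSMA5 and PSMA7, lay between -0.093 and 0.083 in siRRM1. The lower-signal probe set of PSMA2 gave -0.33 in siRRM1 and -0.19 in siRRM2. That of PSMA7 gave -0.15 and -0.13, and neither was called when every probe set was fitted. The non-catalytic beta subunits PSMB1, PSMB2, PSMB3 and PSMB4 lay between -0.036 and 0.091 in siRRM1 and between -0.040 and 0.072 in siRRM2. Of these, PSMB3 read 11.82 and 11.69 in siRRM1 cells and 11.73 and 11.70 in siRRM2 cells, against 11.63 and 11.70 in scramble cells, and the groups overlapped.

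The catalytic subunits of the constitutive core also lay near their scramble level. PSMB5, which carries the chymotrypsin-like activity and is the main target of bortezomib, read 9.90 and 9.76 in siRRM1 cells and 9.85 on both arrays in siRRM2 cells, against 9.80 and 9.86 in scramble cells. The siRRM1 arrays lay on either side of the scramble arrays. The log2 difference was 0.0012 in siRRM1 (95% interval -0.21 to 0.21) and 0.022 in siRRM2 (95% interval -0.19 to 0.23).

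PSMB6, the caspase-like subunit, read 11.06 and 10.92 in siRRM1 cells and 11.03 and 10.99 in siRRM2 cells, against 11.04 and 11.16 in scramble cells. PSMB7, the trypsin-like subunit, read 11.36 and 11.21 in siRRM1 cells and 11.32 and 11.27 in siRRM2 cells, against 11.35 and 11.34 in scramble cells. For both genes the siRRM1 and scramble arrays overlapped and the siRRM2 arrays lay below both scramble arrays. The log2 difference of PSMB6 was -0.11 in siRRM1 (95% interval -0.33 to 0.11, limma adjusted p = 0.479) and -0.087 in siRRM2 (95% interval -0.31 to 0.14, limma adjusted p = 0.662). That of PSMB7 was -0.059 in siRRM1 (95% interval -0.27 to 0.16) and -0.051 in siRRM2 (95% interval -0.27 to 0.16). A p that misses the threshold does not show that these levels were equal.

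The immunoproteasome subunits lay on both sides of scramble. PSMB9 read 9.54 and 9.64 in siRRM1 cells and 9.38 and 9.53 in siRRM2 cells, against 9.17 and 9.40 in scramble cells. PSMB8 read 9.72 and 9.70 in siRRM1 cells and 9.44 and 9.76 in siRRM2 cells, against 9.32 and 9.68 in scramble cells. PSMB10 read 10.11 and 9.87 in siRRM1 cells and 10.26 and 10.28 in siRRM2 cells, against 10.25 and 10.34 in scramble cells. For each of the 3 the siRRM1 and scramble arrays did not overlap, PSMB8 and PSMB9 being higher in siRRM1 and PSMB10 lower. The siRRM2 and scramble arrays overlapped for each. Over all genes, 59.3% did not overlap with scramble in siRRM1 and 54.7% did not in siRRM2.

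No immunoproteasome gene passed the threshold. The siRRM1 log2 differences were 0.31 for PSMB9 (SE 0.11, limma adjusted p = 0.0972), 0.21 for PSMB8 (SE 0.15, limma adjusted p = 0.384) and -0.30 for PSMB10 (SE 0.11, limma adjusted p = 0.0954). In siRRM2 they were 0.17 for PSMB9 (limma adjusted p = 0.434), 0.10 for PSMB8 (limma adjusted p = 0.763) and -0.023 for PSMB10 (limma adjusted p = 0.927). PSMB8 and PSMB9 were lowest on scramble replicate 1, and without that array their siRRM1 differences were 0.027 and 0.20. Myeloid markers were also higher in siRRM1. The summed linear signal of the 6 on the array was 652 and 1499 in siRRM1 cells and 329 and 693 in siRRM2 cells, against 194 and 205 in scramble cells. S100A8, S100A9 and CSF1R rose in siRRM1, with CD14, LYZ and ITGAM below the filter, and the part of these transcripts in the PSMB8 and PSMB9 values was not tested.

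Of the genes that supply peptides to MHC class I, 3 of 9 tested rose and 1 fell in siRRM1, where 8.22% of all genes rose and 7.33% fell. In siRRM2 1 of the 9 rose, where 2% of all genes rose. TAP1, a peptide transporter subunit whose gene lies next to PSMB9 on chromosome 6, read 9.07 and 9.13 in siRRM1 cells and 8.86 and 8.94 in siRRM2 cells, against 8.43 on both arrays in scramble cells. The 3 groups did not overlap, and TAP1 rose in siRRM1 (log2 difference 0.67, SE 0.086, limma adjusted p = 0.00397) and in siRRM2 (log2 difference 0.47, SE 0.086, limma adjusted p = 0.0383). In siRRM1 the aminopeptidase ERAP2 also rose (0.40, limma adjusted p = 0.0449), as did the peptide-loading factor TAPBP (0.35, limma adjusted p = 0.0457). The fall was in PDIA3, a folding enzyme of the loading complex (-0.38, limma adjusted p = 0.0278). TAP2, whose gene lies next to PSMB8, went the other way from TAP1 and was not called. It read 7.83 and 7.68 in siRRM1 cells, against 7.92 and 8.06 in scramble cells (log2 difference -0.24, limma adjusted p = 0.169). In siRRM2 its log2 difference was -0.081. The difference between TAP1 and PSMB9 was not tested.

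The regulatory genes (base, lid, activators and inhibitor) mostly lay below 0, by small amounts. Of 18 genes, 15 had a siRRM1 log2 difference below 0, with a median of -0.13, where 51.7% of all genes lay below 0. In siRRM2 14 lay below 0, with a median of -0.078, where 50.7% of all genes did. Calls were 2 in siRRM1, PSMD12 and PSMF1, where 7.33% of all genes fell. In siRRM2 there were 0 by limma, where 2.52% of all genes were called. All 6 lid genes lay below 0 in siRRM1, from -0.47 for PSMD12 to -0.027 for PSMD3. PSMD14, the deubiquitinase of the lid, had a log2 difference of -0.093 in siRRM1 and -0.12 in siRRM2. The lid genes PSMD11, PSMD6 and PSMD8 had -0.22, -0.20 and -0.14 in siRRM1, and none passed. The other probe set of PSMD11, with a lower signal, gave -0.55 in siRRM1. It was not called when every probe set was fitted (limma adjusted p = 0.166).

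The base gave no calls at the gene level. Of its ATPases, the unfolding motors, 3 of 5 lay below 0 in siRRM1, where 51.7% of all genes did. PSMC6 had the smallest adjusted p of the 5. PSMC6 read 10.86 and 10.75 in siRRM1 cells and 10.92 and 10.91 in siRRM2 cells, against 11.10 and 11.06 in scramble cells, and the 3 groups did not overlap. Its log2 difference was -0.27 in siRRM1 (SE 0.088, limma adjusted p = 0.0746) and -0.16 in siRRM2 (limma adjusted p = 0.350), and the siRRM1 value was called when array medians were set equal (-0.32, limma adjusted p = 0.0483).

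PSMD1, a scaffold subunit of the base, read 10.02 and 10.04 in siRRM1 cells and 10.07 and 10.11 in siRRM2 cells, against 10.13 and 10.24 in scramble cells. The 3 groups did not overlap, and the siRRM1 log2 difference was -0.15 (limma adjusted p = 0.287). Its other probe set gave -0.39 and was called when every probe set was fitted (limma adjusted p = 0.0483), so the probe sets of PSMD1 share a direction but not a call. PSMD2, another scaffold of the base, and PSMD4, a ubiquitin receptor, had siRRM1 differences of -0.0052 and 0.084.

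The alternative activators, which open the core without the ubiquitin-dependent base and lid, were not called. PSME1, a subunit of the interferon-inducible activator, read 11.83 and 11.71 in siRRM1 cells and 11.84 and 11.92 in siRRM2 cells, against 11.86 and 11.95 in scramble cells. Its log2 difference was -0.13 in siRRM1 (95% interval -0.35 to 0.083, limma adjusted p = 0.366) and -0.026 in siRRM2. PSME3, the nuclear activator, had -0.25 in siRRM1 and -0.056 in siRRM2. Its 4 probe sets did not share a direction: 3 lay below 0 in both knockdowns, and the other had 0.028 in siRRM1 and 0.34 in siRRM2, none of them called. PSME4 had -0.10 in siRRM1 and -0.12 in siRRM2. Its other probe sets, with lower signals, gave -0.48 and -0.19 in siRRM1 and -0.54 and -0.073 in siRRM2, none of them called. Of the assembly chaperones besides PSMD10, PSMD5 and PSMD9, which act on the base, had siRRM1 differences of -0.13 and -0.19. PSMG1 and PSMG2, which help to build the alpha ring, had -0.15 and 0.020.

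**Figure D3:**
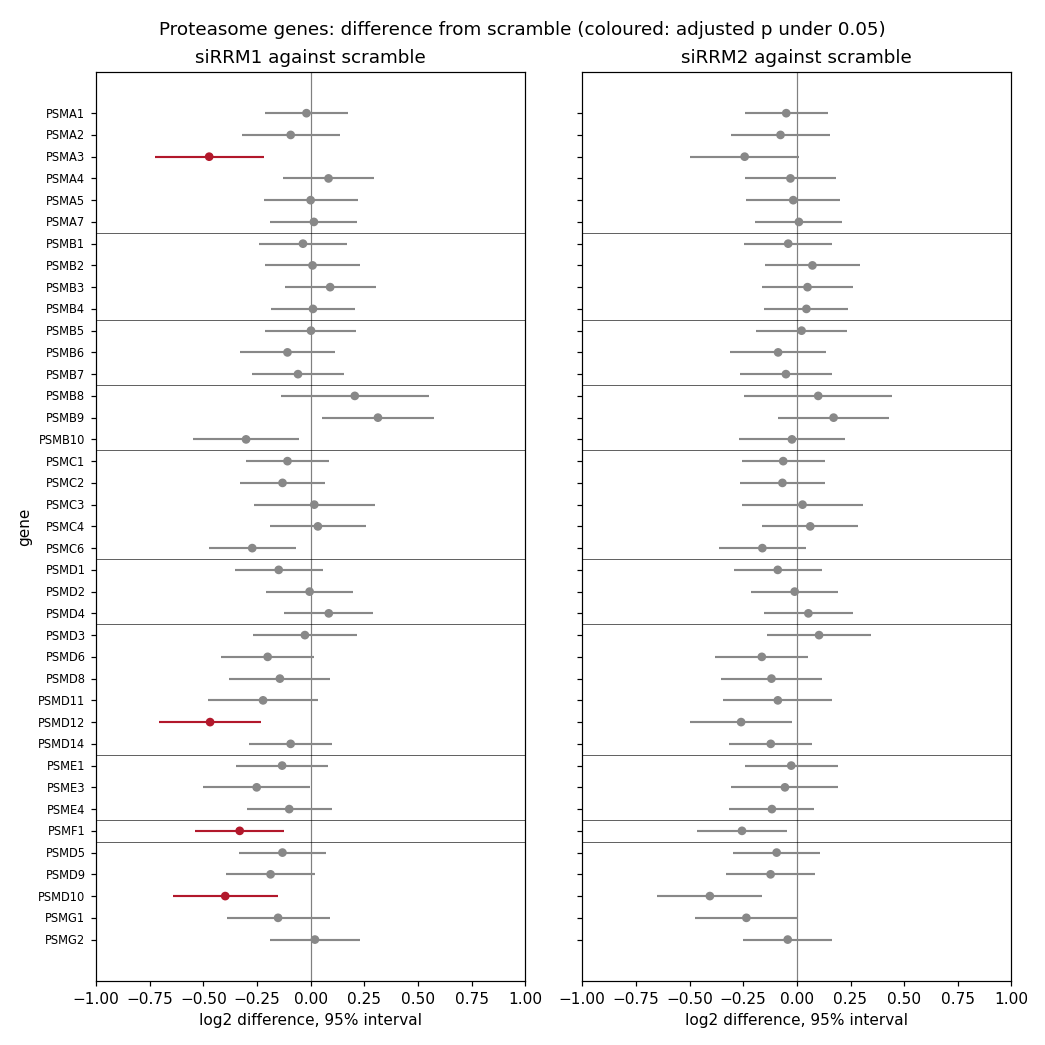
Log2 difference from scramble for each of the 39 proteasome genes, siRRM1 on the left and siRRM2 on the right, with 95% intervals of the moderated fit; horizontal lines separate the classes. Coloured points passed an adjusted p under 0.05, which were PSMA3, PSMD12, PSMD10 and PSMF1 in siRRM1 and no gene in siRRM2.

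The knockdowns were also set against each other. In siRRM1 against siRRM2, 0 of the 39 proteasome genes were called by limma and 1, PSMB10, had an unadjusted p under 0.05 (log2 difference -0.28, SE 0.11, limma adjusted p = 0.438). Over all genes 0.164% were called and 10% had an unadjusted p under 0.05. The median was -0.021, beside -0.0078 over all genes. Of the 39 genes, 36 lay within 0.2 of 0, a count not made over all genes. Differences were below 0 for 24 genes (61.5%, where 52.3% of all genes were). The arrays did not overlap for 16 (41.0%, where 40.8% did not), of which 12 were lower in siRRM1 (30.8%, where 21.8% were). PSMA3 (-0.23, 95% interval -0.48 to 0.024) and PSMD12 (-0.21, 95% interval -0.45 to 0.028) were among these and did not pass. Without siRRM1 replicate 2 the median over the proteasome genes was 0.035.

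Probe sets of one gene were compared where more than 1 was tested, which was so for 14 genes. In siRRM1 against scramble the probe sets of 9 of the 14 lay on one side of 0, and in siRRM2 those of 8. The median range between probe sets of a gene was 0.15 in siRRM1 and 0.14 in siRRM2. The widest range was that of PSMF1, at 0.43 in siRRM1 and 0.56 in siRRM2. Fitted as probe sets, 4 of 58 fell in siRRM1 (6.90%, where 12.1% of the 13366 tested were called and 5.72% were called lower), namely PSMA3, both of PSMD12 and 1 of PSMD1. In siRRM2 0 of 58 were called by limma, where 1.32% of all were. Between the knockdowns 0 of 58 were called by limma, where 0.0374% of all were.

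**Figure D4:**
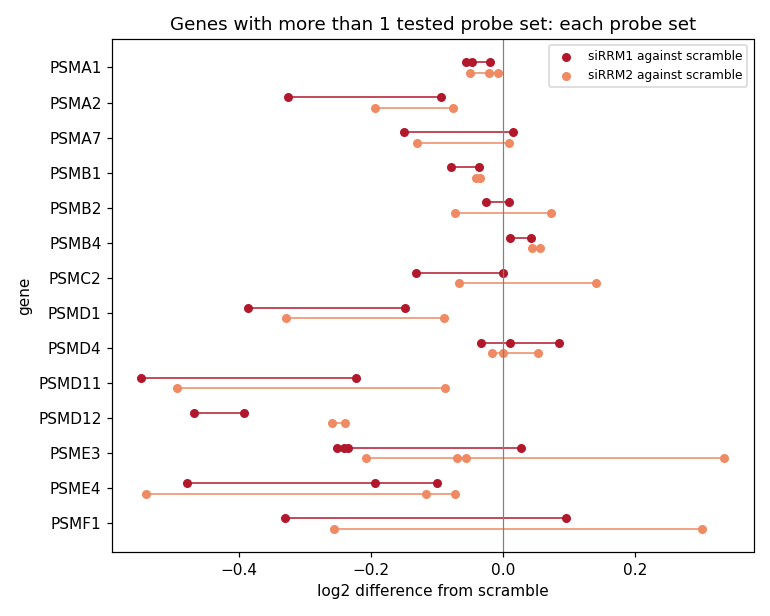
Log2 difference from scramble for every tested probe set of the 14 proteasome genes with more than 1, siRRM1 drawn above siRRM2 for each gene, with a line joining the probe sets of a gene. Both probe sets of PSMD12 lie below 0 in both knockdowns, while those of PSMF1 lie on both sides of 0.

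A list of 10 genes was written for other subunits and associated factors, and 1 of the 10, PSMC3IP, is neither and was not called. Of the 10, 2 fell in siRRM1, where 7.33% of all genes fell, and 0 were called in siRRM2, where 2.52% of all genes were called. USP14, a deubiquitinase that docks on the base, had a log2 difference of -0.37 in siRRM1 (limma adjusted p = 0.0392), and ECPAS, a scaffold of the assembled complex, had -0.35 (limma adjusted p = 0.0404). In siRRM2 the smallest p was that of ADRM1, a ubiquitin receptor of the base (0.29, limma adjusted p = 0.138). Of 5 genes of the NFE2L1 axis, which controls proteasome gene transcription, 0 were called in either knockdown. The smallest p was that of NGLY1 in siRRM1 (-0.22, limma adjusted p = 0.159).

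Ubiquitin and substrate delivery genes gave 1 rise of 10 in siRRM1 (8.22% of all genes) and 2 of 10 in siRRM2 (2% of all genes), and 0 falls. SQSTM1, the autophagy receptor for ubiquitinated cargo, read 10.50 and 10.53 in siRRM1 cells and 10.34 and 10.22 in siRRM2 cells, against 9.65 and 9.61 in scramble cells. The 3 groups did not overlap, and SQSTM1 rose in siRRM1 (log2 difference 0.89, SE 0.088, limma adjusted p = 0.00154) and in siRRM2 (log2 difference 0.65, SE 0.088, limma adjusted p = 0.0197). UBA1, the ubiquitin-activating enzyme, rose in siRRM2 (log2 difference 0.54, SE 0.10, limma adjusted p = 0.0383) and had 0.32 in siRRM1 (limma adjusted p = 0.0668). The log2 differences of SQSTM1 were larger in size than that of any proteasome gene in the same comparison.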

How the data were processed

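Total RNA of NCI-H929 cells was extracted, biotin-labelled and hybridised to Affymetrix arrays, per the labels' protocols. The authors deposited log2 signals, 1 per probe set and array. How these were summarised and normalized was not given in the sources used here. Array medians were 6.11 on the scramble arrays and 6.14 to 6.16 on the knockdown arrays, and no scaling was added. The 6 arrays were grouped by their titles, 2 each.

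Gene names came from the platform annotation (19070 probe sets with 1 symbol, 1043 with several, 2164 with none listed). Of those with 1 symbol, 19058 matched RefSeq (GRCh38.p14), which changed 0 symbols. Each gene was represented by its probe set with the highest mean, and tested where that mean was at least 5.44, the 40th percentile over the array. Differences were tested with limma 3.58.1 (lmFit, eBayes) in R 4.3.3 over all 6 arrays (3 residual and 4.61 prior degrees of freedom), two-sided, with Benjamini-Hochberg adjustment over all 7936 genes, or over 13366 when every probe set was fitted. A call is an adjusted p under 0.05. The code was tested on simulated data. Standard errors (SE) and 95% intervals are those of the moderated fit. The number of arrays limits the precision.

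The members, lists and alternatives were chosen with earlier results of these data known. Values per array are given for the targets, the catalytic subunits, PSME1, every proteasome gene called and, in classes with none of these, the gene with the smallest adjusted p. Of each associated list, up to 2 called genes in each direction are named, or the gene with the smallest p. TAPBP, TAP2, IRF4, the other markers and the members named only by their difference were chosen after their values were seen. So were the array values of SQSTM1, TAP1 and TAP2.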

Additional observations from a re-analysis of the deposited data

How the results depend on the processing

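With 2 arrays a group the smallest difference called among proteasome genes was -0.33, and 1 array could end a call. The count of proteasome genes called in siRRM1 (4) was 2 without a filter, 2 after quantile normalization and 2 with the contrast's 2 groups alone, in each case without PSMD10 and PSMF1. It was 5, with PSMC6 added, after median centring (limma adjusted p = 0.0483) and with an intensity trend (limma adjusted p = 0.0310). With the mean of all probe sets PSMF1 was lost (-0.12, limma adjusted p = 0.358). After median centring the medians over the proteasome genes were -0.14 in siRRM1 and -0.088 in siRRM2, beside -0.052 and -0.041 over all genes. After quantile normalization they were -0.057 and -0.017, beside -0.0063 and -0.0074 over all genes. Fitted as probe sets the count (4) was 2 without a filter, 3 after quantile normalization and 0 with the 2 groups alone. It was 6 with the 60th percentile filter, 6 after median centring and 6 with an intensity trend. Leaving out 1 array gave 0 to 4 genes and 0 to 5 probe sets in siRRM1, and 0 in the other comparisons. The medians then ran from -0.13 to -0.037 in siRRM1 and from -0.079 to 0.035 between the knockdowns. Over all genes the counts ran from 307 to 1222 in siRRM1, 13 to 203 in siRRM2 and 2 to 16 between the knockdowns. With an intensity trend 336 genes were called in siRRM2 and 42 between the knockdowns, where the 60th percentile filter gave 4.

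The labels give the replicates numbers but do not say that a number marks a shared culture or day. With the replicate number as a block, 1904 genes were called in siRRM1, 622 in siRRM2 and 153 between the knockdowns. The proteasome probe sets called were 9 in siRRM1 and 2 in siRRM2. The proteasome genes called were 5 in siRRM1, with PSMB9 added (limma adjusted p = 0.0343), and 1 in siRRM2, PSMD10 (limma adjusted p = 0.0464). Across genes, deviations of same-numbered arrays from their group means correlated at 0.38 for siRRM1 and scramble, 0.36 for siRRM2 and scramble and 0.21 for the knockdowns.

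The signs that turned were those of differences called in no setting. In siRRM2, PSMF1 was 0.023 with the mean of all probe sets, PSMB5 -0.016 after median centring, and PSMB10 0.021 and PSME1 0.019 after quantile normalization. In siRRM1, PSMB5 was -0.042 after median centring, and between the knockdowns PSMB7 was 0.0064 after quantile normalization. Leaving out 1 array, siRRM1 differences ran from -0.070 to 0.072 for PSMB5 and -0.13 to 0.016 for PSMB7. Those in siRRM2 ran from -0.0040 to 0.048 for PSMB5, -0.079 to 0.28 for PSMB8, -0.067 to 0.021 for PSMB10 and -0.069 to 0.017 for PSME1. Between the knockdowns they ran from -0.022 to 0.10 for PSMB3, -0.092 to 0.050 for PSMB5, -0.093 to 0.051 for PSMB6, -0.084 to 0.067 for PSMB7, -0.054 to 0.27 for PSMB8 and -0.083 to 0.10 for PSMD10. The causes were not tested.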
